A study of Mus musculus with 16 samples.

Results

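RNA of the mouse retina labelled as a conditional knockout (CKO) of Uxt was compared between postnatal days 7 and 14 (P7 and P14). The members are the 2 libraries labelled CKO at P14 and the 2 labelled CKO at P7, chosen by their labels alone, 4 of the 16 libraries of the study. The mice were C57BL/6, and the CKO animals came from crosses of Chx10-Cre with Uxt flox/flox mice, in which loxP sites made by CRISPR/Cas9 flank exon 3 of Uxt. The Chx10 promoter drives Cre in retinal progenitors and, in the mature retina, in bipolar cells. The other groups used here are the controls of the same ages, 2 libraries each, which the labels call control with no further genotype. No sex is given. Nothing in the labels ties each library to an animal of its own, so p-values cover only the spread among these libraries, and that spread may be technical. Every library was made from polyA+ RNA.

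In the mouse retina, the last progenitors leave the cell cycle in the days after birth, and rods, the cells of dim-light vision, are the last large class of neurons to be born together with bipolar cells and Müller glia. Between the end of the first and the second week, rods build their outer segments, the stacks of membrane that hold the proteins of phototransduction, and connect to bipolar cells through ribbon synapses, and the eyes open. The transcription factors Otx2, Crx, Nrl and Nr2e3 direct rod fate and turn on the phototransduction genes. Uxt encodes a small chaperone-like protein of the prefoldin family that takes part in the URI complex and in transcriptional regulation.

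Uxt (ENSMUSG00000001134, chromosome X, 20941722 to 20962017) stood at 7.66 and 6.62 CPM (the usual depth-scaled count, here on library sizes corrected for composition by TMM) in the P7 libraries labelled CKO and at 8.15 and 7.98 CPM in the P14 libraries. The controls had 5.76 and 6.41 CPM in the P7 libraries and 5.41 and 7.61 CPM in the P14 libraries. Uxt was therefore not lower in the libraries labelled CKO than in the controls at either age, and "labelled CKO" is used in this sense for every direction below. Its change from P7 to P14 was 0.17 ± 0.18 on the log2 scale (standard error from the fit of 2 libraries per group, as for every ± below; adjusted p = 0.413 by edgeR's quasi-likelihood test), and the difference from the change in controls was not called (0.08 ± 0.25, adjusted p = 0.829). The counts are per gene, so transcripts that lack exon 3 are counted too.

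The 4 libraries held between 18167006 and 19161594 counts. The chi-square per degree of freedom between replicates, 1 under pure counting error, was 1.59 at P7 and 1.66 at P14. All 10 of 10 retinal marker genes checked (Crx, Otx2, Sag, Prph2, Grm6, Trpm1, Gad1, Tfap2b, Glul and Rbpms) were at 8.98 CPM or more in each of the 4 libraries. Genes of tissues outside the retina were abundant as well. Lens genes took 7.33% and 7.39% of the counts at P7 and 5.91% and 5.76% at P14. Genes of a gland list took 0.122% and 0.124% at P7 and 2.11% and 2.10% at P14, against 0.623% and 0.636% in the P14 controls. Connective tissue genes took 2.63% and 2.63% at P7 and 1.22% and 1.23% at P14. These shifts run beside the changes of retinal genes described below, and their part in those changes was not tested.

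From P7 to P14, 13235 of 21115 tested genes (62.7%) changed in the libraries labelled CKO at an adjusted p under 0.05. Of these, 6335 rose (30.0% of the genes tested) and 6900 fell (32.7%). The change was at least 2-fold in 2625 that rose (12.4%) and in 3356 that fell (15.9%). In the controls, 7375 genes (34.9%) changed over the same week, 3941 upward (18.7%) and 3434 downward (16.3%). The median change of all tested genes was -0.07 on the log2 scale in the libraries labelled CKO and 0.01 in the controls, so list medians below can be read nearly against 0. With so large a share of all genes called, the count of called members in a list is given for description, and its size and direction carry the information. Scaling decides the sign of the smaller changes. Values are on the TMM scaling unless another is named. With library size alone every change is lower by about 0.40 on the log2 scale, and when libraries were scaled on the summed amacrine, horizontal and ganglion cell genes (called scaling on inner retinal neuron genes) every change is higher by about 1.15, so rises and falls below those sizes change sign under them. "Rose" and "fell" below mean an adjusted p under 0.05 by edgeR's quasi-likelihood test over all tested genes.

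The transcription factors that specify photoreceptors fell together. Of 14 tested, 11 fell and 3 rose, with a median of -2.58, where 32.7% of all genes fell and the median of all genes was -0.07. In the controls 5 rose and 4 fell, with a median of 0.01. The list kept a negative median under all 5 scalings of the libraries, between -2.98 and -1.43.

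Crx, the homeobox factor that activates most photoreceptor genes, was at 563 and 556 CPM in the P7 libraries and at 106 and 105 CPM in the P14 libraries labelled CKO. It fell by 2.41 ± 0.04 (adjusted p = 3.96e-19), while the controls held 579 and 582 CPM at P7 and 583 and 598 CPM at P14. The P14 libraries labelled CKO were thus below the other 6 libraries of these ages, which lay close together. Nr2e3, the nuclear receptor that represses cone genes in rods, went from 686 and 681 CPM to 87.3 and 80.6 CPM, a fall of 3.02 ± 0.05. In the controls Nr2e3 was between 605 and 655 CPM at both ages. Otx2, the factor that commits precursors to photoreceptor and bipolar fates, went from 425 and 428 CPM to 53.2 and 57.2 CPM, against a smaller fall in the controls from 365 and 360 CPM to 212 and 199 CPM.

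Neurod1, a basic helix-loop-helix factor needed to maintain photoreceptors, dropped from 335 and 332 CPM to 44.0 and 44.4 CPM (-2.92 ± 0.08). Nrl, the leucine zipper factor that decides rod over cone fate, fell by 2.34. Rorb, a nuclear receptor upstream of Nrl, fell by 3.20, and Prdm1, which blocks bipolar fate in young photoreceptors, fell by 3.93. Prdm1 also fell in controls, by 1.36. The other members that fell were Mef2d (-0.38), Samd7 (-2.66), Samd11 (-2.67) and Lhx4 (-2.50). The 3 that rose were Esrrb, an estrogen-related receptor of mature rods (1.41), Nr1d1, a circadian repressor (0.75), and Casz1 (0.39), and all 3 rose in the controls too (3.07, 0.90 and 0.36). Mef2d changed sign under scaling on inner retinal neuron genes, and Casz1 with library size alone.

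**Figure D1:**
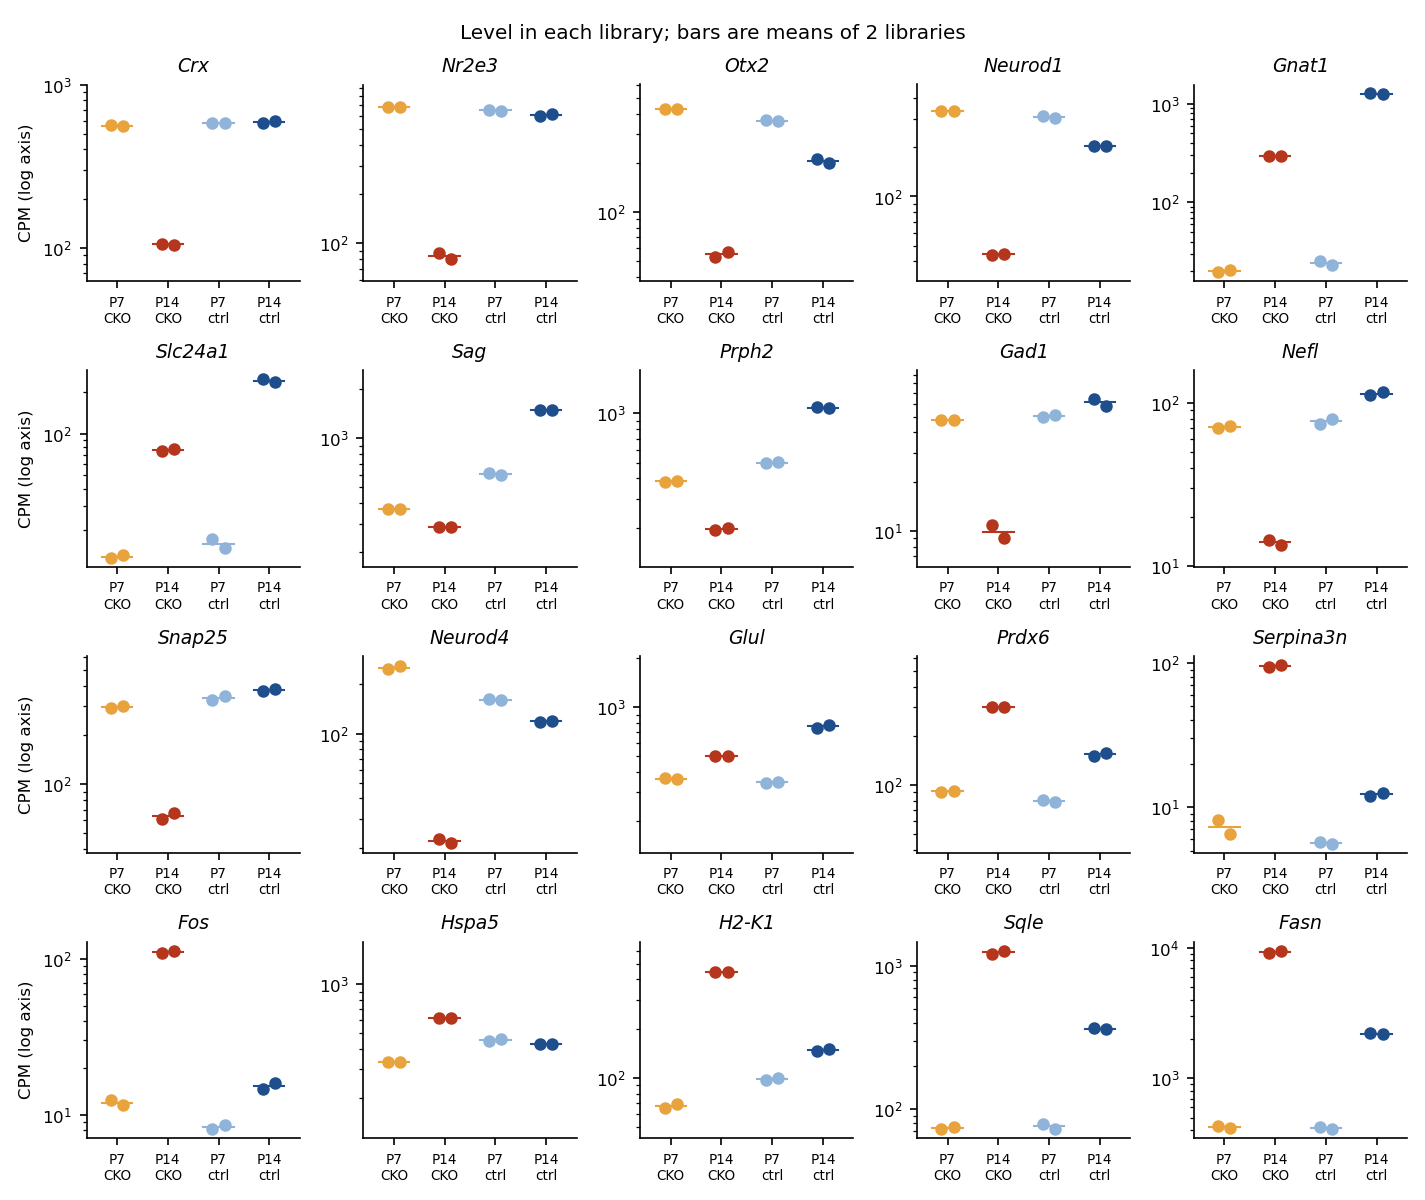
Level of 20 genes in CPM (log axis) in each library; points are single libraries, bars are means of 2, and colours mark the P7 and P14 libraries labelled CKO and the P7 and P14 controls. Crx, Nr2e3, Otx2 and Neurod1 were lowest in the P14 libraries labelled CKO, while Gnat1 and Slc24a1 rose in both labels and reached higher levels in the controls; levels use the TMM scaling, under which Sag and Prph2 fell in the libraries labelled CKO, and both changed sign under scaling on inner retinal neuron genes.

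The promoters of 4 photoreceptor genes that hold the motif bound by Crx are shown. Whether the motif goes with a rise or a fall was not tested. Crx binds a short homeodomain motif, TAATCC or its reverse complement GGATTA. It was searched on both strands in the 250 bases before the transcription start (RefSeq, GRCm38.p6). The motif was present in 1949 of 27025 promoters in the table (7.21%), in 7 of 13 rod phototransduction genes with an entry (53.8%), in 6 of 17 outer segment genes (35.3%), in 5 of 14 photoreceptor transcription factors (35.7%), in 4 of 11 photoreceptor synapse genes (36.4%) and in 2 of 9 cone genes (22.2%). Matches are in capitals. A match is a description of the letters and not a measured binding site.

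Crx promoter, chr7:15879956-15880205, minus strand: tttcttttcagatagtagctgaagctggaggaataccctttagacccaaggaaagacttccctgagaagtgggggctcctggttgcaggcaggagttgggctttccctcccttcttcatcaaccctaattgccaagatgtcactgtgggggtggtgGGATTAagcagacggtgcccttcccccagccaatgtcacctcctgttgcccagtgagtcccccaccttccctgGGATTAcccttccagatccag

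Sag promoter, chr1:87803430-87803679, plus strand: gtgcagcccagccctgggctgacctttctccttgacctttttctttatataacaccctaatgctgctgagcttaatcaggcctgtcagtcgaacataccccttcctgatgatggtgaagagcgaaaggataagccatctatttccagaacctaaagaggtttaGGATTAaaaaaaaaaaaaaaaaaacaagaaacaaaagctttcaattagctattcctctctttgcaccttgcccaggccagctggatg

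Aipl1 promoter, chr11:72037510-72037759, minus strand: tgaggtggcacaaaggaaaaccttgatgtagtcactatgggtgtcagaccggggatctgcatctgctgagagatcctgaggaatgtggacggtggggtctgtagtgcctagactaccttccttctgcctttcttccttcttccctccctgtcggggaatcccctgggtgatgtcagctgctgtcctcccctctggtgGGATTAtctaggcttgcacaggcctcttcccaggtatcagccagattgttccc

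Rbp3 promoter, chr14:33953753-33954002, plus strand: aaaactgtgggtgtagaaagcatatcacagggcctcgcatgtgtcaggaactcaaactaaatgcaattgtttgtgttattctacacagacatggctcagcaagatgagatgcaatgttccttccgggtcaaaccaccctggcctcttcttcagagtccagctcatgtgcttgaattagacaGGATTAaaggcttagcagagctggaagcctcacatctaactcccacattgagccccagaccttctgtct

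The Crx promoter held 2 matches and the other 3 promoters 1 each. Of these 4 genes, Crx, Rbp3 and Sag fell and Aipl1 rose on the TMM scaling. Aipl1 was at -0.02 with library size alone, and Sag at 0.78 under scaling on inner retinal neuron genes.

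The rod phototransduction genes split. Of 20 tested, 7 rose, 8 fell and 5 were not called, with a median of -0.07, the same as that of all genes. In the controls 19 rose and none fell, with a median of 1.52. The summed level of the list was 2790 and 2785 CPM at P7 and 2784 and 2775 CPM at P14 in the libraries labelled CKO, while in the controls it went from 3883 and 3896 CPM to 13549 and 13511 CPM. Under scaling on inner retinal neuron genes the median of the list in the libraries labelled CKO became 1.08.

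Gnat1, the alpha subunit of rod transducin, had 19.6 and 20.6 CPM in the P7 libraries and 298 and 295 CPM in the P14 libraries. It rose by 3.88 ± 0.07 (adjusted p = 6.56e-19), against a rise of 5.70 in the controls, which reached 1270 and 1244 CPM. Every P14 library was above every P7 library, and the P14 libraries labelled CKO lay between the P7 libraries and the P14 controls. Slc24a1, the rod sodium-calcium-potassium exchanger, showed the same order, at 12.6 and 13.1 CPM at P7, 75.4 and 78.0 CPM at P14, and 249 and 237 CPM in the P14 controls. Guca1b, an activator of guanylate cyclase, rose by 2.91, Pde6a, a catalytic subunit of the rod phosphodiesterase, by 1.90, Rcvrn, the calcium sensor recoverin, by 1.37, and Gucy2f, a guanylate cyclase, by 0.89.

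Other rod genes fell although the controls rose. Sag, rod arrestin, which ends the signal of activated visual pigment, went from 371 and 369 CPM to 286 and 285 CPM, a fall of 0.37 ± 0.06 (adjusted p = 3.59e-05), whereas the controls went from 610 and 597 CPM to 1494 and 1484 CPM. This fall became a rise of 0.78 under scaling on inner retinal neuron genes. Pdc, phosducin, a regulator of transducin, fell by 2.11 from 428 and 436 CPM to 99.0 and 101 CPM, the largest fall among the rod genes. Cngb1, the beta subunit of the rod cyclic nucleotide channel, fell by 1.22 and Rgs9, which speeds the shut-off of transducin, by 1.13. Grk1, the kinase that acts on activated visual pigment, had 86.4 and 80.5 CPM in the P7 libraries and 88.5 and 86.5 CPM in the P14 libraries, a change of 0.07 ± 0.06 (adjusted p = 0.31).

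Genes of the outer segment and the matrix around it fell for the most part. Of 20, 15 fell and 3 rose, with a median of -1.10, whereas in the controls 17 rose, none fell and the median was 0.72. Under scaling on inner retinal neuron genes the list's median was 0.05. Prph2, the tetraspanin peripherin that shapes disc rims, went from 383 and 385 CPM to 194 and 199 CPM, a fall of 0.97 ± 0.05. The controls went from 498 and 501 CPM to 1088 and 1084 CPM, so the labels moved in opposite directions, although Prph2 was 0.18 under scaling on inner retinal neuron genes. Rbp3, the retinoid carrier of the interphotoreceptor matrix, went from 796 and 785 CPM to 239 and 258 CPM (-1.67 ± 0.05). Tulp1, which moves proteins to the outer segment, fell by 1.82, Prom1, a disc morphogenesis protein, by 1.79, and Rom1, the partner of peripherin, by 1.61. Aipl1, a chaperone of the rod phosphodiesterase, rose from 54.5 and 55.3 CPM to 71.1 and 71.5 CPM (0.38 ± 0.06), which turned to -0.02 with library size alone.

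The ribbon synapse and the connecting cilium followed. Of 15 photoreceptor synapse genes, 12 fell and 2 rose, with a median of -1.09, against 11 that rose and a median of 0.52 in the controls. The median was 0.06 under scaling on inner retinal neuron genes. Bsn and Pclo, the large scaffold proteins of the active zone, fell by 2.09 and 2.04. Cabp4, a calcium-binding regulator of the photoreceptor calcium channel, rose by 1.30 and Cplx4, a complexin of ribbon synapses, by 0.58, and Slc17a7, the vesicular glutamate transporter, was at 114 and 112 CPM against 107 and 112 CPM (adjusted p = 0.73). Of 22 cilium and transport genes, 19 fell and 1 rose, with a median of -0.78, which turned to 0.37 under scaling on inner retinal neuron genes. The single rise, of Rp2 (0.26, adjusted p = 0.0437), was lost when P14 replicate 1 or P7 replicate 2 was left out. Rpgrip1, a scaffold of the connecting cilium, went from 723 and 687 CPM to 182 and 191 CPM (-1.92 ± 0.11), and rose by 0.68 in the controls.

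Most cone genes fell in both labels. Of 13, 11 fell and 2 rose, with a median of -2.22, and in the controls 9 fell and 2 rose, with a median of -0.88. The difference was called downward in 8 and upward in 1, but in 1 and 2 under scaling on inner retinal neuron genes, where its median was -0.15. Gngt2, the gamma subunit of cone transducin, went from 56.2 and 52.8 CPM to 6.47 and 7.24 CPM, a fall of 2.99 ± 0.13, close to the fall of 2.73 in the controls (difference -0.26, not called). Cngb3, a subunit of the cone cyclic nucleotide channel, fell from 15.1 and 13.7 CPM to 0.674 and 1.01 CPM (-4.09 ± 0.19), against 0.88 in the controls. Arr3, cone arrestin, fell by 1.67 and Pde6h, the inhibitory subunit of the cone phosphodiesterase, by 2.22, both from about 7 CPM.

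The 2 cone members that rose were Thrb and Opn1mw. Thrb, the thyroid hormone receptor that patterns cone opsins, went from 26.8 and 26.8 CPM to 101 and 97.7 CPM (1.89 ± 0.07), against 0.58 in the controls. Opn1mw, the medium-wave opsin, had 1 count at P7 in both libraries together and 17 at P14, a ratio of 22.4 (95% counting interval 3.50 to 934). Opn1mw was therefore near the limit of detection, since 3 counts correspond to between 0.149 and 0.202 CPM in these 4 libraries. Such floors and intervals cover counting error only, because the reads carry no molecular identifiers and can be copies of one another.

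Over the 6 photoreceptor lists together, 76 of 104 tested genes fell and 18 rose, with a median of -1.01. In the controls 66 rose and 14 fell, with a median of 0.39. The list medians and their members are compared in the strips of the list plot.

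**Figure D2:**
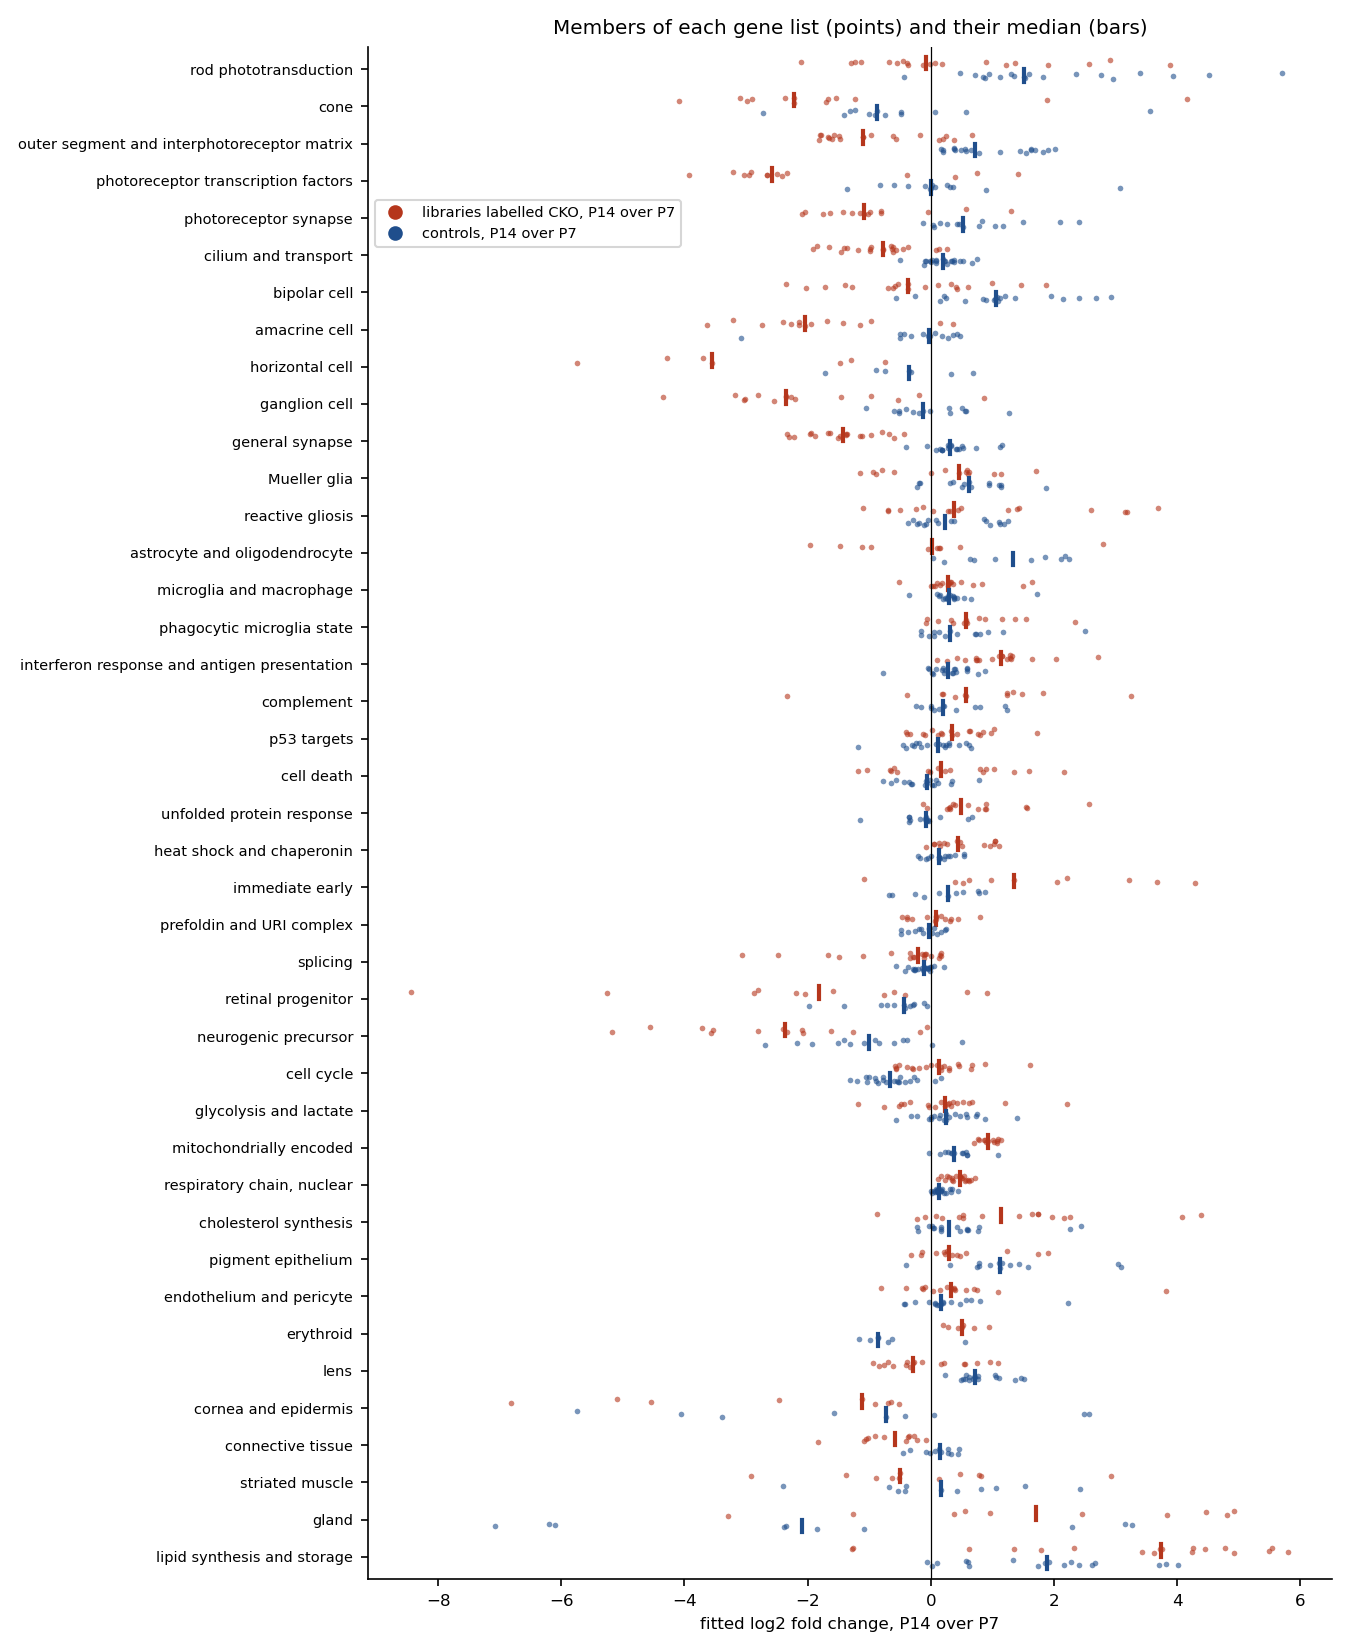
Fitted log2 fold change from P7 to P14 (x axis) of each tested member of 41 gene lists (rows); red points are the libraries labelled CKO, blue points the controls, and thick bars the list medians. The medians of 14 photoreceptor transcription factors were -2.58 and 0.01 and those of 18 lipid genes 3.74 and 1.89 in the libraries labelled CKO and the controls; the medians of the cilium, bipolar and connective tissue lists, among others, changed sign under scaling on inner retinal neuron genes.

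Bipolar cells, which carry photoreceptor signals to the inner retina, were divided. Of 20 genes, 11 fell and 6 rose, with a median of -0.37, which turned to 0.78 under scaling on inner retinal neuron genes. The controls had 15 rises, 2 falls and a median of 1.06. Grm6 and Trpm1, receptor and channel of the ON bipolar response, were at 69.0 and 67.3 against 66.0 and 61.3 CPM and at 218 and 213 against 232 and 238 CPM. The change of Grm6 was -0.10 ± 0.07 (adjusted p = 0.205), and that of Trpm1, 0.12 ± 0.05 (adjusted p = 0.0456), was no longer called without P14 replicate 2 or P7 replicate 2 (adjusted p = 0.068 and 0.1). Rgs11, which speeds the same response, rose by 1.88, Isl1, a factor of ON bipolar and other inner neurons, fell by 1.73, and Vsx1, a factor of cone bipolar cells, by 2.02.

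Amacrine, horizontal and ganglion cell genes fell. Of 15 amacrine genes, 12 fell and 1 rose (2 without P14 replicate 1), with a median of -2.04. This median is -1.95 when Ptf1a, at 0 counts at P14 and under the floor at P7, is set to no change. Gad1, the enzyme that makes the transmitter GABA, went from 48.0 and 47.6 CPM to 10.8 and 8.98 CPM (-2.27 ± 0.15), whereas the controls held 49.8 and 51.1 CPM and then 64.4 and 58.3 CPM. Gad2, its second form, fell by 2.40 and rose by 0.37 in the controls, and Prdm13, an amacrine specification factor, fell by 3.22. Tfap2b, a transcription factor of amacrine cells, was the member that rose, from 163 and 159 CPM to 205 and 209 CPM (0.36 ± 0.05), while it fell by 0.43 in the controls, and it changed sign with library size alone.

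All 7 of 7 horizontal cell genes fell, with a median of -3.56, or -1.47 with Gja10, at 0 counts in both P14 libraries, set to its bound. Onecut2, a fate factor of horizontal cells, fell by 3.56 from 14.9 and 14.5 CPM, and Ndrg1 by 1.47 from 402 and 412 CPM. Gja10, the horizontal cell connexin, was at least 1.75-fold lower at P14, taking 3 counts per library as the floor, and its call was lost without P7 replicate 1 (adjusted p = 0.0819). Onecut1 had 56 counts at P7 and 2 at P14, a ratio of 21.3 (95% counting interval 5.63 to 180.2).

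Of 15 ganglion cell genes, 13 fell and 1 rose, with a median of -2.35. Nefl, a neurofilament of axons, went from 69.7 and 72.4 CPM to 14.4 and 13.5 CPM (-2.35 ± 0.18), whereas the controls went from 74.1 and 79.7 CPM to 112 and 116 CPM. Stmn2, a regulator of microtubules in growing axons, fell by 3.17, and Isl2, a ganglion cell homeobox gene, fell by 4.35. Rbpms, an RNA-binding protein used as a ganglion cell marker, rose from 41.4 and 43.3 CPM to 74.6 and 79.2 CPM (0.86 ± 0.07).

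Of 20 genes of synapses in general, 19 fell and none rose, with a median of -1.43, against 12 that rose, 1 that fell and a median of 0.31 in the controls. Snap25, a core protein of vesicle fusion, went from 293 and 303 CPM to 61.0 and 66.6 CPM (-2.22 ± 0.11). Nrxn3, a neurexin that organises synapses, fell by 2.34 and Gria2, a glutamate receptor subunit, by 2.30. Over the 5 lists of inner neurons and synapses, 62 of 77 tested genes fell and 8 rose, with a median of -1.46, or -1.39 with the members at 0 counts set to their bounds. In bulk RNA, fewer cells of a type and less RNA per cell cannot be told apart, and this holds for each cell type named here.

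Most progenitor genes fell. Of 12 progenitor genes, 10 fell and 2 rose, with a median of -1.81, against -0.43 in the controls. The difference was called downward in 7 and upward in 2, and in 6 and 5 under scaling on inner retinal neuron genes. Hes5, a Notch effector of progenitors and glia, went from 12.9 and 13.3 CPM to 0.269 and 0.402 CPM (-5.26 ± 0.24). Rax and Six6, eye-field homeobox genes, fell by 2.88 and 2.81. Fgf15, a progenitor growth factor, had 91 counts at P7 and none at P14, at least 11.5-fold lower with the floor of 3 counts per library. Pax6, a homeobox gene of progenitors that stays on in inner neurons and is expressed in lens and cornea, rose by 0.58, and Ccnd1, cyclin D1, by 0.91; neither rose in the controls, where Pax6 changed by -0.06 and Ccnd1 fell by 0.27.

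Of 14 neurogenic precursor genes, 12 fell and none rose, with a median of -2.37, against 11 that fell and a median of -1.0 in the controls. Neurod4, a proneural factor, went from 248 and 260 CPM to 22.4 and 21.5 CPM (-3.53 ± 0.07), whereas the controls went from 162 and 161 CPM to 118 and 119 CPM. Insm1, a zinc finger repressor of neuronal precursors, fell by 3.72, and Dll3, a Notch ligand, fell by 5.18. The P7 libraries labelled CKO had the highest Neurod4 of the 8 libraries and the P14 libraries the lowest.

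Müller glia, the supporting cells that span the retina, and other glia had genes that rose and genes that fell. Of 15 Müller genes, 8 rose and 5 fell, with a median of 0.46, against 0.63 in the controls. Glul, glutamine synthetase, went from 367 and 362 CPM to 500 and 501 CPM (0.46 ± 0.05), a rise not called with library size alone (0.06, adjusted p = 0.415), and the controls reached 748 and 773 CPM. Prdx6, an antioxidant enzyme, rose from 91.1 and 92.2 CPM to 302 and 299 CPM (1.71 ± 0.05), above the 151 and 157 CPM of the P14 controls. Clu, clusterin, rose by 1.15, against 1.14 in the controls (difference 0.01, not called), and Sox9, a glial transcription factor, rose by 1.03. Slc1a3, the glial glutamate transporter, fell by 1.14 and Vim, vimentin, by 0.79, and the latter changed sign under scaling on inner retinal neuron genes.

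Of 18 genes of reactive gliosis tested, the response of glia to injury, 9 rose and 4 fell, with a median of 0.38 against 0.23 in the controls; the median was -0.02 with library size alone. Serpina3n, a protease inhibitor, went from 8.11 and 6.51 CPM to 93.2 and 97.0 CPM (3.70 ± 0.10), whereas the P14 controls were at 12 and 12.5 CPM. Lcn2, lipocalin, rose by 3.19 from about 3 CPM, Osmr, a cytokine receptor, by 2.60, Stat3, its transcription factor, by 1.44, and Edn2, the photoreceptor-derived stress signal, by 3.15 from under 1 CPM to 4.92 and 5.63 CPM. For Edn2 the difference from the controls (2.02) was not called in the main fit, but it was by DESeq2 and in fits of fewer libraries. Fgf2, a growth factor induced in stressed photoreceptors, rose by 1.40, against 1.19 in the controls (difference 0.20, not called). Gfap, the intermediate filament used as the standard marker of gliosis, had 166 and 161 CPM in the P7 libraries and 140 and 138 CPM in the P14 libraries. Its change of -0.24 ± 0.08 (adjusted p = 0.0117) was not called when any of the 4 libraries was left out (adjusted p between 0.0639 and 0.156) or by DESeq2 (0.0659), and Gfap rose in the controls by 0.86.

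Of 10 astrocyte and oligodendrocyte genes, 4 fell and 2 rose (4 without P14 replicate 1), with a median of 0.02, and -0.38 with library size alone, against 8 that rose and a median of 1.33 in the controls. Mbp, a structural protein of myelin, went from 296 and 277 CPM to 131 and 135 CPM (-1.11 ± 0.05), while the controls went from 309 and 303 CPM to 504 and 495 CPM. Sox10, a transcription factor of oligodendrocytes that gland epithelium also expresses, rose from 57.2 and 61.2 CPM to 396 and 430 CPM (2.80 ± 0.06), apart from the rest of the list.

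Microglia genes moved little as a list. Of 18 microglia and macrophage genes, 7 rose and 1 fell, with a median of 0.29, the same as in the controls, and -0.11 with library size alone. Cx3cr1 and Csf1r, receptors of resident microglia, were at 10.9 and 13.1 against 12.3 and 11.8 CPM and at 50.4 and 50.6 against 56.5 and 52.4 CPM, neither called. Tmem119, a marker of resident microglia, fell by 0.52. Itgam, an integrin of myeloid cells, rose by 1.49 from 2.54 and 2.68 CPM, against 1.72 in the controls (difference -0.22, not called). Of 15 genes of the phagocytic state, 10 rose and none fell, with a median of 0.58 (0.32 in the controls). With library size alone 7 rose and 2 fell, with a median of 0.18. The list was led by Lpl, lipoprotein lipase, which is also a fat-tissue gene (2.35), and Spp1, osteopontin (1.55, against 2.50 in the controls).

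Interferon response and antigen presentation genes rose. Of 20, 17 rose, 3 were not called and none fell, with a median of 1.13. In the controls 2 rose and the median was 0.29. The median stayed positive under all 5 scalings (0.73 to 2.28), but with library size alone 10 rose and 1 fell. Fewer rose when any of the 4 libraries was left out. The difference between the labels was called in 9 of the 20, each higher in the libraries labelled CKO, and not called in 11. H2-K1, a class I heavy chain that presents peptides to T cells, went from 65.3 and 69.5 CPM to 444 and 442 CPM (2.72 ± 0.26, adjusted p = 1.39e-05), whereas the P14 controls were at 145 and 150 CPM. H2-D1, the second class I heavy chain, rose by 2.04, and Irf9, which carries the interferon signal, by 1.16. H2-K1 and H2-D1 are close in sequence and can share reads. Of 13 complement genes, 10 rose and 1 fell, with a median of 0.57. With library size alone 6 rose and 2 fell, with a median of 0.16. C3, the central component, rose by 1.83 from 15.5 and 14.5 CPM to 51.6 and 55.0 CPM, with no change in the controls (0.00), C1s1, a protease of the classical pathway, rose by 1.49, and Masp1, of the lectin pathway, fell by 2.34.

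Immediate early genes, which respond within minutes to stimulation or tissue handling, were higher at P14. Of 11, 8 rose and 1 fell (none without P14 replicate 2), with a median of 1.35, against 0.27 in the controls. Fos went from 12.4 and 11.5 CPM to 109 and 113 CPM (3.21 ± 0.22), whereas the P14 controls were at 14.6 and 15.9 CPM. Fosb rose by 4.29, Nr4a1, an orphan nuclear receptor, by 3.68, Atf3, a stress factor, by 2.20 and Egr1 by 2.06.

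Genes of the unfolded protein response, which raises folding capacity in the endoplasmic reticulum, rose in the libraries labelled CKO. Of 16, 14 rose and none fell, with a median of 0.50, whereas in the controls 1 rose and 5 fell, with a median of -0.08. The difference between the labels was called in 15 of the 16, each higher in the libraries labelled CKO. With library size alone 7 rose and 2 fell, with a median of 0.10, and the difference was called upward in 10. Hspa5, the main chaperone of this compartment, went from 332 and 333 CPM to 622 and 620 CPM (0.90 ± 0.08), whereas the controls went from 447 and 462 CPM to 427 and 431 CPM. Trib3, a pseudokinase induced by this stress, rose by 2.58, Dnajb9, a co-chaperone, by 1.57, Asns, asparagine synthetase, by 1.54 and Xbp1, a factor of the response, by 0.76. Ddit3, its pro-death factor, was not called (-0.13, adjusted p = 0.3). Of 16 heat shock and chaperonin genes, 12 rose and none fell, with a median of 0.45. With library size alone 6 rose and 6 fell, with a median of 0.05. The list was led by Bag3 (1.11) and Hsp90ab1, the constitutive cytosolic chaperone, which went from 1278 and 1261 CPM to 2561 and 2650 CPM (1.04 ± 0.07).

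Of 20 p53 targets, 8 rose and 2 fell, or 1 without P14 replicate 2 (median 0.34, and -0.06 with library size alone), led by Ei24 (1.72), and Cdkn1a, the p21 cell cycle inhibitor, changed by 0.18 ± 0.15 (adjusted p = 0.33), which was called in the fits without the P30 libraries and of the 4 libraries alone (adjusted p = 0.000226 and 0.00117). Of 18 cell death genes, 8 rose and 5 fell, with a median of 0.17 that turned to -0.23 with library size alone. Casp1, the inflammatory caspase, rose by 2.16 from 1.59 and 1.63 CPM, Fadd, a death receptor adaptor, by 1.60, and Casp9, the initiator of mitochondrial apoptosis, by 0.90, while its partner Apaf1 fell by 1.18, and by 0.35 in the controls.

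Cell cycle genes did not fall as they did in the controls. Of 22, 7 rose and 2 fell (1 without either P14 library or P7 replicate 1), with a median of 0.13, which turned to -0.27 with library size alone, whereas in the controls 18 fell and none rose (median -0.66). The difference between the labels was called in 14, all 14 toward the libraries labelled CKO. Pcna, the replication clamp, went from 89.5 and 88.1 CPM to 167 and 161 CPM (0.89 ± 0.06), against 94.4 and 95.9 CPM in the P14 controls. Rrm2, a subunit of ribonucleotide reductase, rose by 1.61. Mki67, the standard marker of cycling cells, had 124 and 122 CPM in the P7 libraries and 82.1 and 82.9 CPM in the P14 libraries, a change of -0.58 ± 0.25 (adjusted p = 0.0771) that was called in the fit without the P30 libraries (adjusted p = 1.65e-27) and in 4 other fits.

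Most splicing genes fell. Of 20, 12 fell and 4 rose, with a median of -0.21, which turned to 0.94 under scaling on inner retinal neuron genes. In the controls 9 fell and 1 rose, with a median of -0.12. The difference was called downward in 7 and upward in 3, and not in 10, with a median of -0.06. Srrm4, which promotes the use of neuronal microexons, fell by 3.06 from 187 and 187 CPM to 21.1 and 23.7 CPM, Msi1, an RNA-binding protein of neural cells, by 2.48, Nova1 by 1.67 and Ptbp2 by 1.49. Among core spliceosome genes, Prpf8 was at 315 and 314 against 344 and 364 CPM (0.17), Sf3b1 at 319 and 319 against 320 and 317 CPM (adjusted p = 0.95), and Prpf31 fell by 0.33. Of 15 genes of the prefoldin and URI complexes, to which Uxt belongs, 5 rose and 3 fell, with a median of 0.09 (-0.31 with library size alone), led by Wdr92 (0.80) and Vbp1 (-0.46, which turned to 0.69 under scaling on inner retinal neuron genes).

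In energy metabolism, 12 of 13 mitochondrially encoded genes rose and none fell, with a median of 0.92 (0.39 in the controls). mt-Cytb went from 2951 and 2999 CPM to 6393 and 6265 CPM (1.09 ± 0.14), and mt-Co1 from 6173 and 6278 CPM to 11430 and 11280 CPM (0.87 ± 0.17). The share of all counts from mitochondrial genes was 1.69% and 1.72% at P7 and 2.46% and 2.39% at P14. Of 20 nuclear genes of the respiratory chain, 16 rose and none fell, with a median of 0.47. Fewer rose when any of the 4 libraries was left out. With library size alone 4 rose and 2 fell, with a median of 0.07. Of 21 glycolysis and lactate genes, 10 rose and 6 fell, with a median of 0.24 that turned to -0.16 with library size alone; without P14 replicate 1, 3 fell. Hk2, the inducible hexokinase, rose by 2.20 from 35.0 and 34.1 CPM to 155 and 164 CPM, Slc16a1, a lactate transporter, by 1.20 (1.40 in the controls), and Pfkp, the platelet form of phosphofructokinase, fell by 1.18.

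Of 18 cholesterol synthesis genes, 13 rose and 2 fell, with a median of 1.14, against 0.29 in the controls, and 1 fell when any of the 4 libraries was left out. Sqle, squalene epoxidase, went from 72.0 and 74.9 CPM to 1214 and 1271 CPM (4.08 ± 0.10), and the P14 controls were at 366 and 359 CPM. Insig1, a sterol sensor, rose by 4.38. A list of 18 genes of fatty acid synthesis and storage, put together after its values were seen, had 16 that rose and 2 that fell, with a median of 3.74 (1.89 in the controls). Its sum went from 3464 and 3452 CPM to 58568 and 59610 CPM, against 16428 and 16370 CPM in the P14 controls. Fasn, fatty acid synthase, went from 433 and 414 CPM to 9081 and 9501 CPM (4.45 ± 0.07), and Elovl5, an elongase, from 258 and 259 CPM to 14363 and 14558 CPM (5.80 ± 0.06). The 2 desaturases Fads1 and Fads2 fell, by 1.25 and 1.27.

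**Figure D3:**
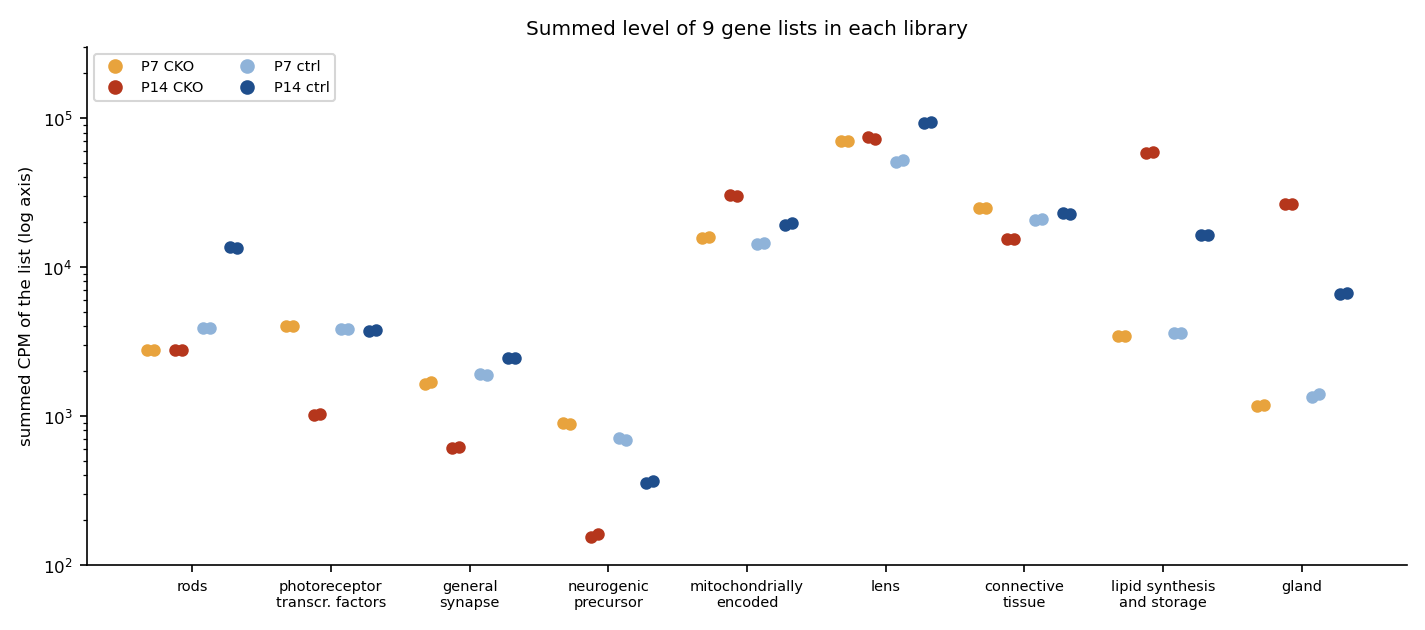
Summed CPM (log axis) of 9 gene lists (x axis) in each of 8 libraries, coloured by age and label; each point is 1 library. Rod genes held between 2775 and 2790 CPM in the libraries labelled CKO while the P14 controls were at 13549 and 13511 CPM, and the lipid and gland lists were highest in the P14 libraries labelled CKO, at 58568 and 59610 CPM and at 26485 and 26516 CPM; sums use the TMM scaling.

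The lipid genes ran beside those of a gland. Of 10 gland genes, 7 rose and 2 fell, with a median of 1.71, against 3 that rose, 7 that fell and a median of -2.10 in the controls. The summed level of the list rose in both labels. It went from 1167 and 1185 CPM to 26485 and 26516 CPM in the libraries labelled CKO, and from 1349 and 1404 CPM to 6576 and 6716 CPM in the controls. Bpifa6, a secreted protein, went from 677 and 691 CPM to 15175 and 15035 CPM (4.46 ± 0.30), Scd1, a fatty acid desaturase, from 340 and 342 CPM to 10256 and 10420 CPM (4.92 ± 0.08), and Elovl3, an elongase of sebaceous and other lipid glands, rose by 4.81. Mucl1, a mucin-like gland protein, fell by 3.30 from 2.04 and 2.05 CPM (between -4.75 and -2.55 without 1 of the P14 libraries), and Awat2, a wax synthase, by 1.26. Bpifa6, Scd1 and Elovl3 also rose in the controls, by 2.29, 3.26 and 3.16.

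Other tissues moved in several directions. Of 18 lens genes, 3 rose and 6 fell, with a median of -0.28 that turned to 0.87 under scaling on inner retinal neuron genes, against 16 that rose in the controls, and without P14 replicate 1 of the libraries labelled CKO 3 fell. Cryaa, the alpha crystallin of the lens, held 18419 and 18566 CPM at P7 against 15283 and 15441 CPM at P14, not called (-0.27 ± 0.17, adjusted p = 0.192), although it was called in the fits of fewer libraries. All 9 tested cornea and epidermis genes fell, with a median of -1.12 (-0.73 in the controls), and the median was 0.03 under scaling on inner retinal neuron genes. Krt1, a keratin of skin, went from 402 and 398 CPM to 3.84 and 3.22 CPM (-6.82 ± 0.08), against a fall of 5.74 in the controls (difference -1.08, called). Of 12 connective tissue genes, 9 fell and none rose, with a median of -0.58 that turned to 0.57 under scaling on inner retinal neuron genes, and Col1a1, a fibrillar collagen, fell by 1.08 where it rose by 0.28 in the controls.

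Of 11 striated muscle genes, 4 rose and 4 fell (2 rose when any of the 4 libraries was left out), with a median of -0.50 that turned to 0.65 under scaling on inner retinal neuron genes. The myosin Myh8, of newborn muscle, fell by 2.91 and Myh4, of adult fast muscle, rose by 2.92, and both moved the same way in the controls (-2.40 and 2.43). Of 14 pigment epithelium genes, 8 rose and none fell, with a median of 0.30, against 12 that rose and a median of 1.12 in the controls; the median was -0.10 with library size alone. Of 17 endothelium and pericyte genes, 8 rose and 2 fell, with a median of 0.33 that was -0.07 with library size alone, led by Mfsd2a, a lipid transporter of the blood-retina barrier (3.82). Of 7 erythroid genes, 1 rose, with a median of 0.51 against -0.85 in the controls, and that call was lost when any of the 4 libraries was left out.

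Among all genes, the 8 largest rises chosen by the naming rule were led by genes with low levels at P7. Cyp4a10, a fatty acid hydroxylase, went from 0.249 and 0.158 CPM to 83.0 and 80.1 CPM (8.59 ± 0.22), Sptlc3, a subunit of the enzyme that starts sphingolipid synthesis, from 2.99 and 3.52 CPM to 749 and 748 CPM (7.85 ± 0.10), and Aqp8, a water channel, from 1.64 and 2.10 CPM to 200 and 202 CPM (6.74 ± 0.15). Aox4, an aldehyde oxidase, went from 4.38 and 5.04 CPM to 436 and 433 CPM (6.53 ± 0.10), and Sectm1a rose by 7.20. These 5 rose in the controls too, by 5.41, 5.30, 4.21, 4.51 and 2.54. Sgk2 (6.53) and Cyp4a32 (6.52) rose in the controls as well, by 6.09 and 3.65, and the difference was called for Cyp4a32 but not for Sgk2. Both moved with single libraries: Sgk2 was 7.45 without P7 replicate 1, and Cyp4a32 was 7.74 without P7 replicate 1 and 5.94 without P7 replicate 2. Cyp4a10 and Cyp4a32 are close paralogs that can share reads. Prb1, a proline-rich secreted protein, had 2 counts at P7 and 165 at P14, a ratio of 108.5 (95% counting interval 29.6 to 903.3), and was not called in the controls (0.21). Its call was lost without P7 replicate 2 (5.73), and its fitted change of 6.58 became 9.71 without P7 replicate 1.

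Among the 8 largest falls, Lypd5, Awat1, Sdr16c5 and Sprr4 had 360, 244, 243 and 218 counts at P7 and none at P14, which makes them at least 45.5-fold, 31.1-fold, 30.8-fold and 27.7-fold lower against the floor of 3 counts per library. They fell in the controls too, where Awat1, Sdr16c5 and Sprr4 also had no counts at P14, and none of their differences was called. Flg, filaggrin, of the outer skin, had 1133 counts at P7 and 1 at P14, a ratio of 862 (95% counting interval 154.3 to 34063), and the pseudogene AA623943 had 671 and 1, a ratio of 510.3 (91.3 to 20185). Calm4, a calmodulin-like protein of skin, went from 38.7 and 37.8 CPM to 0.202 and 0.134 CPM (-7.77 ± 0.23), and fell by 8.39 in the controls. Insm2, a zinc finger gene of neuroendocrine and neuronal precursors, had 879 counts at P7 and 2 at P14, a ratio of 334.2 (92.3 to 2764). The fitted values of Flg, AA623943 and Insm2 moved by over 1.5 times when either P14 library was left out, with Insm2 between -11.7 and -7.27.

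The change from P7 to P14 was then compared between the labels in 1 test. The change in the libraries labelled CKO and that in the controls share no library. The P7 controls, however, differ from the other 3 groups in sex as read from 2 transcripts. Xist, the RNA that coats an inactive X chromosome, was at 1.82 and 2.45 CPM in the P7 controls, at 1194 and 1211 CPM in the P14 controls, at 1374 and 1367 CPM in the P7 libraries labelled CKO and at 829 and 791 CPM in the P14 libraries labelled CKO. The Y-linked Ddx3y was at 63.4 and 65.4 CPM in the P7 controls and at no more than 0.0674 CPM in the other 6 libraries. Sex and age therefore cannot be told apart in the control change, nor in any difference from it, whereas all 4 libraries labelled CKO had high Xist and Ddx3y near 0. Xist changed by -0.76 in the latter, which DESeq2 did not call (-0.72, adjusted p = 0.196).

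The change differed between the labels in 10242 genes (48.5%), of which 5034 (23.8%) were shifted upward in the libraries labelled CKO and 5208 (24.7%) downward. Of the 104 photoreceptor genes, 93 were shifted downward and 1 upward, with a median difference of -1.64 (quartiles -2.01 and -1.13), and of the 77 genes of inner neurons and synapses 70 downward and 4 upward, with a median of -1.73. Under scaling on inner retinal neuron genes the counts were smaller: 10 rod genes were shifted downward and 1 upward, 1 cone gene downward and 2 upward, and 6 cilium genes each way. The other photoreceptor lists kept more: 16 outer segment and 12 photoreceptor synapse genes were shifted downward and none upward, and 10 transcription factors downward and 3 upward. On the TMM scaling the difference was -2.50 at the median for photoreceptor transcription factors and -1.66 for rod genes, and it was -1.81 ± 0.10 for Gnat1, -2.43 ± 0.06 for Crx and -1.68 ± 0.09 for Sag. It was 0.93 at the median for the unfolded protein response, 0.82 for the cell cycle and 1.80 for the lipid list.

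**Figure D4:**
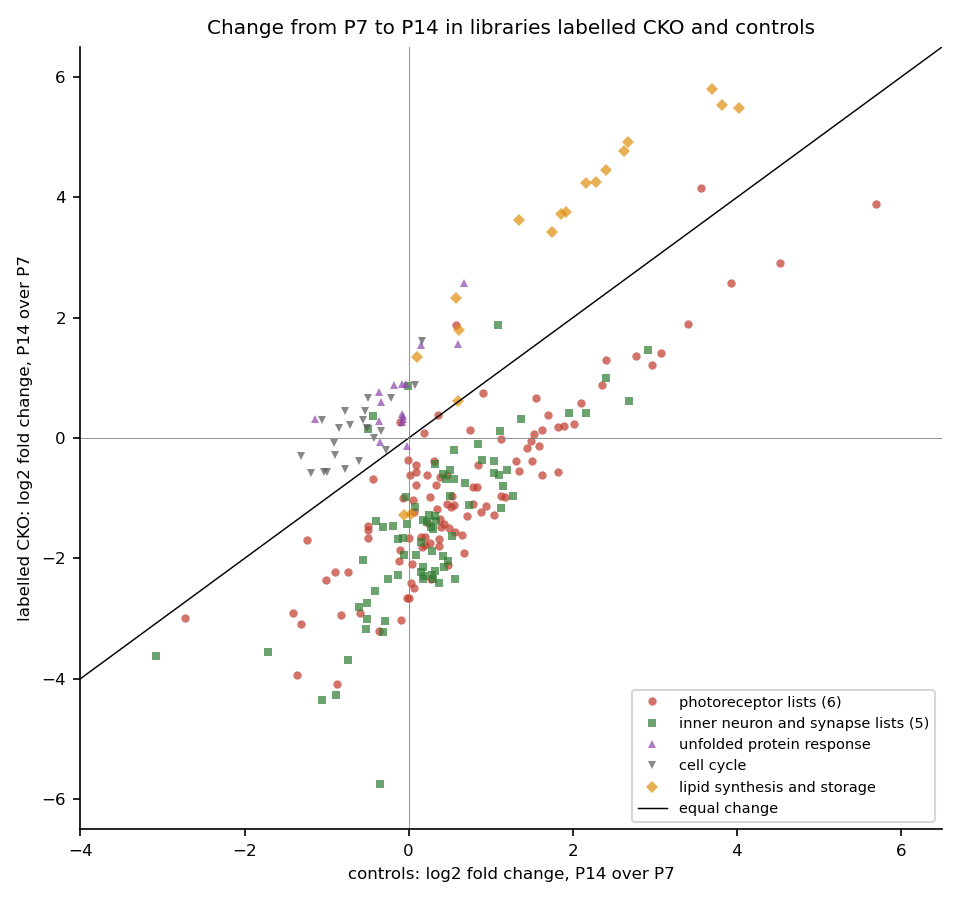
Log2 fold change from P7 to P14 in the controls (x axis) and in the libraries labelled CKO (y axis); each point is 1 gene of the named lists, and the line marks equal change. Of 104 photoreceptor genes 93 were called below equal change, and 14 of 22 cell cycle and 15 of 16 unfolded protein response genes above it; the P7 controls differ from the other groups in sex, and under scaling on inner retinal neuron genes the median difference of all genes is 1.13 in place of -0.02.

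Astrocyte and oligodendrocyte genes were shifted downward too (9 of 10, median -1.92), as were lens genes (13 of 18, median -0.92, but 7 or 8 with any library left out), cornea and epidermis genes (8 of 9, median -1.08) and connective tissue genes (9 of 12, median -0.79). Under scaling on inner retinal neuron genes the lens and connective tissue medians became 0.23 and 0.36, and that of cornea and epidermis 0.07. Gland genes were shifted upward (9 of 10, median 2.98), as were immediate early genes (8 of 11, median 1.25) and cholesterol synthesis genes (13 of 18 upward and 2 downward, or at most 1 downward with any library left out, median 0.87). Erythroid genes were shifted upward in 5 of 7 (median 1.36), but in 1 to 3 with any library left out. Pigment epithelium genes were shifted downward in 10 of 14 (median -0.75, and 0.41 under scaling on inner retinal neuron genes) and Müller genes in 9 of 15 (median -0.62, and 0.54 under that scaling). Few members differed among microglia genes (2 upward and 1 downward of 18, the latter between 0 and 2 with a library left out) and mitochondrially encoded genes (1 upward of 13, and 0 without any 1 of 5 libraries), whereas under scaling on inner retinal neuron genes 17 and 12 of them were shifted upward.

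The scalings were compared over all lists. TMM factors were 0.796 and 0.793 in the P14 libraries and 1.05 in the P7 libraries labelled CKO. With library size alone the median of all genes was -0.47, 3637 genes rose and 10897 fell. When libraries were scaled on the summed amacrine, horizontal and ganglion cell genes, which sets the summed level of those genes equal across libraries, the median of all genes was 1.07, 14486 genes rose and 1548 fell. The sum follows its most abundant genes and does not hold the typical member level. Under it the amacrine, horizontal and ganglion medians were still -0.89, -2.41 and -1.20, with no bound set for members at 0 counts. RLE size factors (median -0.03) and TMM without the genes of other tissues (-0.05) left list medians within 0.05 of the values above. A scaling moves all genes by nearly the same amount, so the order of the lists was kept: the transcription factor, inner neuron and precursor lists lay below the median of all genes, and the interferon, immediate early, lipid and gland lists above it.

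**Figure D5:**
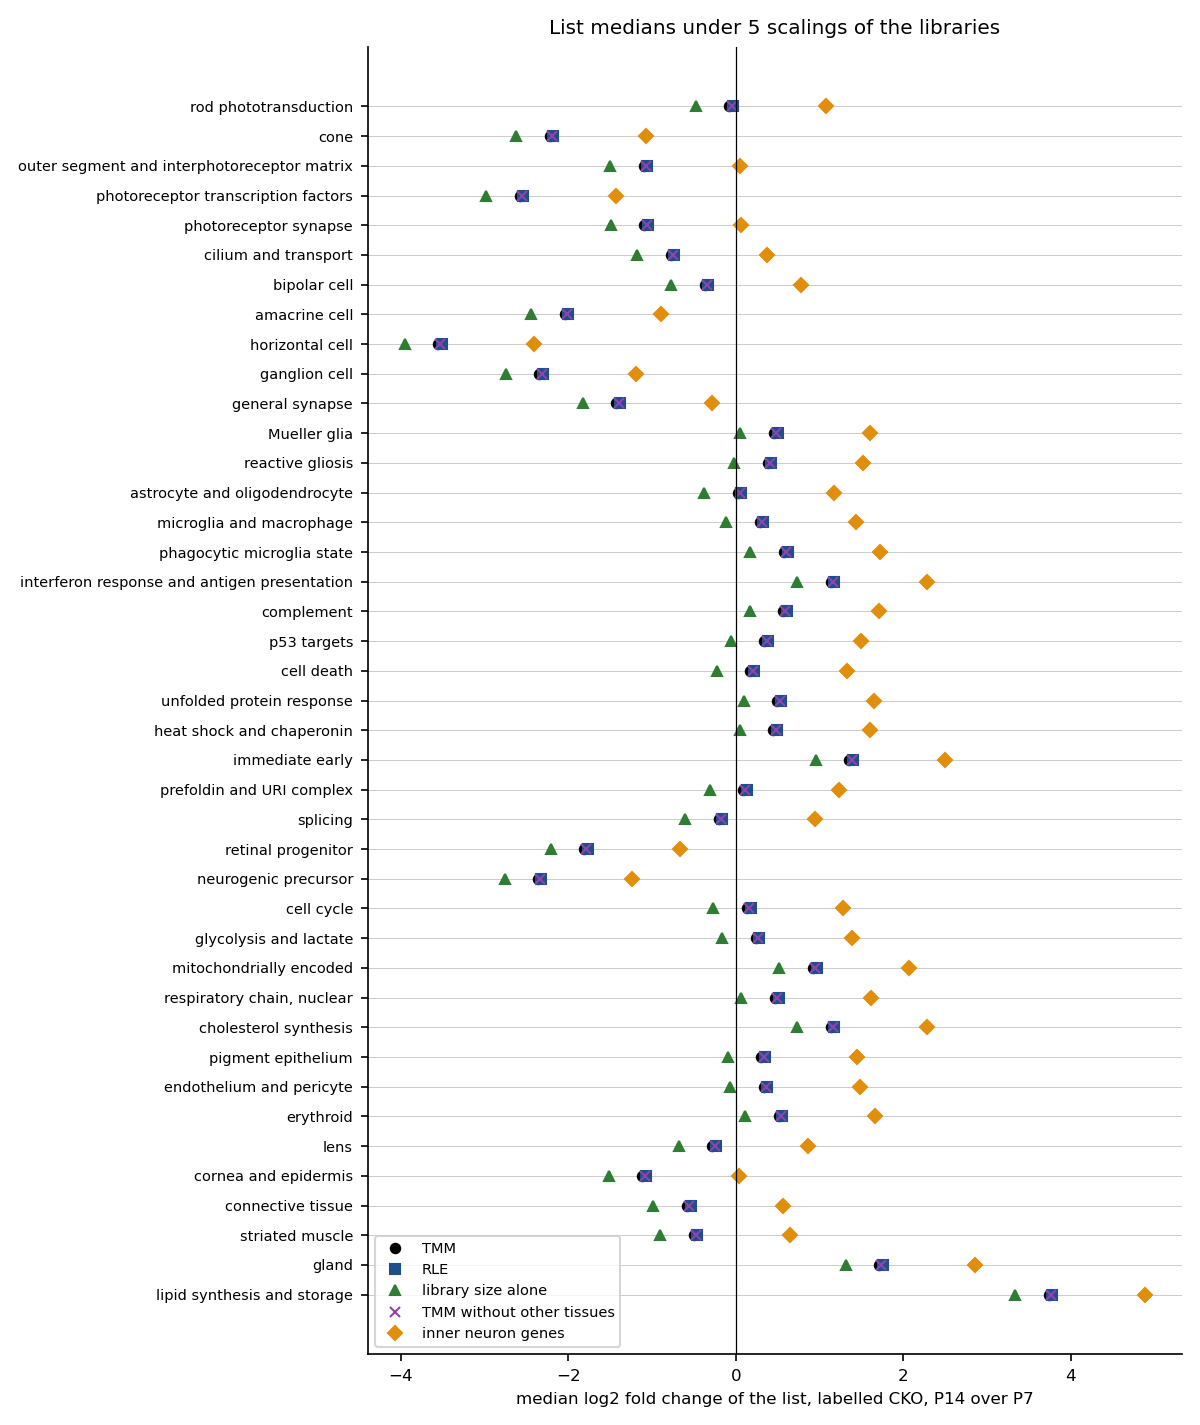
Median log2 fold change from P7 to P14 in the libraries labelled CKO (x axis) of each of 41 gene lists (rows) under 5 scalings of the libraries (symbols). The median of 14 photoreceptor transcription factors stayed between -2.98 and -1.43, whereas that of the rod list moved from -0.48 with library size alone to 1.08 on inner retinal neuron genes.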

How the data were processed

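The authors' deposited files hold raw counts per gene, made with HISAT2 and HTSeq on mm10, per the submitters' processing notes. Versions, strand setting and annotation release are not given in the sources used here, so overlapping and antisense genes, and close paralogs, may share counts. Reads were paired and 150 bases long.

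Genes that filterByExpr kept over the 8 groups (21115 of 54532 identifiers, of which 54495 had a symbol in GENCODE M21) were fitted with edgeR 4.0.16 (R 4.3.3, limma 3.58.1): TMM, robust quasi-likelihood fit of all 16 libraries as 8 groups of 2, two-sided contrasts, Benjamini-Hochberg over all tested genes at 0.05. The standard error is the log2 fold change divided by the square root of F. CPM are counts scaled to the TMM-corrected library size. The common biological coefficient of variation was 0.0635 with 8 residual degrees of freedom. The fit of the P7 to P14 change in the libraries labelled CKO, on the TMM scaling, was also run on simulated data. The test of the difference and the alternative fits were not. Library totals ranged from 15807152 to 22815404 counts, and replicates differed most at P30 (chi-square per degree of freedom 31.7 in the libraries labelled CKO and 4.38 in controls, 1.50 to 1.70 elsewhere).

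The 40 gene lists and the genes in them (625 genes) were chosen with earlier results of these data known, and 1 list of lipid genes was added after its values were seen. Named by rule were Uxt, a fixed set of genes of known role taken whatever their values, and 2 members of each list. The 8 largest rises and 8 largest falls of each contrast were also named by rule. These had an adjusted p under 0.05, at least a 2-fold change, at least 5 CPM in the highest group and, for the change with age, non-overlapping libraries. Other members named were chosen after their values were seen. Cntf and Sprr1b were not tested, and Aldoa and Ddit3 each have 2 identifiers. Genes with no counts in a group were set against a floor of 3 counts per library, and ratios with 1 to 3 counts have exact 95% counting intervals.

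Alternatives were RLE, library size alone, TMM without genes of other tissues, scaling on inner retinal neuron genes, no filter, a filter of 5 CPM in 2 libraries, DESeq2 1.42.0, fits of fewer libraries, a replicate block, and leaving out each library. Deviations of same-numbered libraries correlated by 0.0324 between the P7 and P14 libraries labelled CKO, so the numbers were not taken as pairs. Some members of the lists are not reported here.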

Additional observations from a re-analysis of the deposited data

Results flagged for a closer look

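The change from P7 to P14 differed between the libraries labelled CKO and the controls in 10242 genes, by a test of the difference itself. The P7 controls differ in sex from the other groups, which cannot be told apart from age in these differences, and the 2 sex-linked transcripts had the largest: 11.2 for Ddx3y (adjusted p = 0.0021, and 8.64 with adjusted p = 0.999 without P14 replicate 1 of the libraries labelled CKO, otherwise 10.4 to 13.6) and -9.89 for Xist.

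Next among the genes shifted upward, Lipo4 differed by 8.44 (9.42 without P14 control replicate 2): it went from 1.09 and 0.998 CPM to 2.63 and 1.54 CPM in the libraries labelled CKO and from 20.3 and 20.0 CPM to 0.0536 and 0.164 CPM in the controls. The lipase relatives Lipo5 and Lipo1 differed by 7.51 and 6.65. Scgb2b7, a secretoglobin, differed by 7.30, from 8.61 and 9.82 CPM to 20.9 and 20.7 CPM in the libraries labelled CKO and from 128 and 133 CPM to 2.09 and 1.64 CPM in the controls. Its relatives Scgb2b33 and Scgb2b12 differed by 7.16 and 7.14, and Lipf, gastric lipase, by 7.04 (7.93 without P7 replicate 2 of the libraries labelled CKO). The paralogs within each family can share reads. The P7 controls were high in these genes and are also the libraries with Y-linked transcripts.

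Among genes shifted downward, AA623943 differed by -5.22 (-7.80 to -4.31 when 1 of the P14 libraries labelled CKO was left out) and Insm2 by -3.93 (-7.39 to -2.94 likewise). Arid3c differed by -4.77, from 15.8 and 14.8 CPM to 0.269 and 0.134 CPM against 9.54 and 11.5 CPM to 3.64 and 4.16 CPM in the controls. Crhbp, a binding protein of corticotropin-releasing hormone, differed by -4.42, from 8.36 and 8.88 CPM to 0.269 and 0.402 CPM against a level between 9.75 and 12.4 CPM in the controls. Lhx9, a LIM homeobox gene, differed by -3.89, Tmem121b by -4.02 and Tmem72 by -3.94.

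Among the genes named by rule, others also had changes of opposite sign, each called in the main fit, in the 2 labels. Prom1 differed by -2.16, Rpgrip1 by -2.60, Gad2 by -2.77, Sag by -1.68, Prph2 by -2.09, Gfap by -1.10 and Col1a1 by -1.36, all with a fall in the libraries labelled CKO and a rise in the controls, as had Tmem72 and Xist. Lipo4, Lipo5, Lipo1, Scgb2b7, Scgb2b12 and Lipf rose in the libraries labelled CKO and fell in the controls. The falls of Sag, Prph2, Gfap and Col1a1 changed sign under scaling on inner retinal neuron genes. The fall of Gfap was also not called by DESeq2 (adjusted p = 0.0659) or when any of the 4 libraries was left out.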

How the results depend on the processing

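With RLE factors, DESeq2, no filter, TMM without genes of other tissues or fits of fewer libraries, the genes called from P7 to P14 numbered between 12291 and 14370 against 13235, leaving out 1 control library of P7 or P14 gave 13108 to 13129, and leaving out 1 of the 4 libraries labelled CKO gave 11721 to 11917 (5978 to 6052 higher, 5702 to 5939 lower, 2657 to 2713 higher and 2975 to 3088 lower by at least 2-fold). For the difference between labels, leaving out 1 of the 8 libraries gave 9235 to 9359 (4895 to 5028 higher, 4275 to 4409 lower). The replicate block gave 13219 and 10209 calls against 13235 and 10242. The filter at 5 CPM tested fewer genes and gave 2188 lower by at least 2-fold.

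Scaling moved the split. With library size alone 3637 genes were higher, 10897 lower and 5339 lower by at least 2-fold, the medians of the cell death, cell cycle and glycolysis lists were -0.23, -0.27 and -0.16, and Aipl1, Trpm1 and C1qa were at -0.023, -0.28 and -0.10. Scaling on inner retinal neuron genes gave 14486 higher (10823 by at least 2-fold) and 1548 lower (918), and for the difference 13328 higher and 1146 lower. Under it the medians of the change were 1.08 for rod, 0.37 for cilium, 0.78 for bipolar, 0.94 for splicing, 0.87 for lens, 0.57 for connective tissue and 0.65 for muscle genes, and single genes were at 0.39 (Xist), 0.69 (Vbp1), 0.072 (Col1a1), 0.78 (Sag), 0.18 (Prph2), 1.05 (Grm6), 0.91 (Gfap) and 0.88 (Cryaa). Median differences were 0.16 for cilium, 0.54 for Müller, 0.41 for pigment epithelium, 0.23 for lens, 0.36 for connective tissue and 1.05 for muscle genes, and differences of single genes were 0.89 (Gngt2), 0.93 (Itgam), 0.20 (Spp1), 0.53 (Vbp1), 0.95 (Slc16a1), 0.87 (Crygc), 0.65 (Crybb2), 0.072 (Krt1), 0.10 (Krt10), 0.63 (Myh8), 0.21 (Grm6), 0.16 (Trpm1), 0.47 (Glul), 0.053 (Gfap) and 0.20 (Cryaa). These reversals follow from the shift that a scaling adds to every gene. Of 4070 pairs of a named gene and a setting, 3930 kept direction and side of the threshold, 73 lost and 41 gained a call, and 26 reversed, 3 of them outside the last scaling. Genes under 3 counts in a library, 0.149 to 0.202 CPM here, are beyond this depth.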
